A study of Homo sapiens with 18 samples.

Results

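The aryl hydrocarbon receptor (AHR) pathway was followed through 8 rows of the deposited count table, those whose gene name is AHR, ARNT, AHRR, TIPARP, CYP1A1, CYP1B1, UGT1A1 or UGT1A6. They are 8 of 19901 rows, and all 8 were among the 15475 rows that passed the filter on low counts. UGT1A1 and UGT1A6 share most of their reads, so the 8 rows stand for 7 loci. The libraries came from 3 established cell lines of head and neck squamous cell carcinoma obtained from ATCC: Detroit 562, from a metastasis of a pharyngeal tumor, FaDu, from a primary tumor of the hypopharynx, and SCC-9, from a primary tumor of the tongue. Each line was either left untreated (control) or given 50 ng/mL hepatocyte growth factor (HGF), the ligand of the receptor tyrosine kinase Met, with 3 libraries per group and 18 in all. Treatment lasted 16 h according to the sample records and the study's methods for sequencing, while the series record gives 48 h. MEM-α was the medium of Detroit 562 and of FaDu. SCC-9 had DMEM F12, to which HEPES and hydrocortisone were added, so for SCC-9 the cell line and the medium cannot be told apart. Poly(A) RNA was sequenced, and the libraries held 35304770 to 44003970 counts.

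AHR is a transcription factor of the bHLH-PAS family that waits in the cytoplasm with chaperones until a ligand binds, such as a polycyclic hydrocarbon from smoke or a tryptophan metabolite. It then enters the nucleus, pairs with ARNT and binds DNA at a short core, GCGTG. Its best known targets are CYP1A1 and CYP1B1, cytochrome P450 enzymes that oxidize hydrocarbons, the UGT1A enzymes, which join glucuronic acid to the products, and AHRR and TIPARP, which repress the receptor in turn.

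All 9 squamous epithelial markers checked, among them KRT5 and TP63, were present at a mean of at least 1 CPM (counts scaled to library size) in every group. The lowest was KRT14, at 1.23 CPM ± 0.202 (SD, n = 3) in Detroit 562 control and 1.07 CPM ± 0.312 with HGF. The 9 markers summed to 3505 to 4849 CPM in Detroit 562 control and 2509 to 3858 CPM with HGF, and to as much as 11632 CPM in FaDu. In Detroit 562, 2 of the 9 were called lower with HGF (KRT5 and CDH1), and 3 with the replicate number in the fit, where 11.7% and 14.4% of all tested genes were. KRT5 lost its call without control 1, control 2 or HGF 3. The 6 leukocyte markers summed to 20.4 to 40.6 CPM in Detroit 562 control and 37.4 to 56.3 CPM with HGF, mostly CD68, which was called higher (log2 fold change 0.66, adjusted p = 0.0410, lost without control 1, control 2 or HGF 3), while PTPRC had at most 3 counts in any library. The 4 endothelial markers summed to 1.21 to 2.99 CPM in Detroit 562 control and 0.639 to 1.163 CPM with HGF, and VWF was called lower (-2.12, adjusted p = 0.0281, lost without control 1). The 5 hepatocyte markers summed to at most 6.46 CPM in Detroit 562 and FaDu and to 45.5 to 66.8 CPM in SCC-9 control, mostly SERPINA1, with ALB at most 7 counts in any library. Of 6 fibroblast markers, only COL1A1 and COL1A2 reached a mean of 1 CPM in Detroit 562, at 19.2 and 23.9 CPM in control. The 6 summed to 29.8 to 54.3 CPM there and to 14.97 to 27.6 CPM with HGF, and both collagens were called lower, COL1A2 not without control 1, control 2 or HGF 3. In SCC-9 control the fibroblast markers summed to 77.5 to 99.4 CPM and the leukocyte markers to 62.6 to 65.1 CPM. In FaDu control these sums were 4.01 to 6.79 CPM and 21.8 to 34.4 CPM. The part of these marker shifts in the results below was not tested. In bulk RNA, fewer cells with a transcript and less of it per cell cannot be told apart.

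The UGT1A locus on chromosome 2 (GRCh38, plus strand) makes 9 enzymes from 9 alternative first exons, each joined to the same exons 2 to 5. In the GENCODE 44 transcripts the first exons measure 882 to 976 bases, and the shared exons measure 1479 bases and were identical in all 9. The 30 bases on either side of that junction are shown for 3 variants, since they show why the rows of the locus overlap. Lower case is the end of the first exon, and capitals are the start of shared exon 2 at chr2:233767034-233767063.
UGT1A6 (first-exon part at chr2:233693836-233693865): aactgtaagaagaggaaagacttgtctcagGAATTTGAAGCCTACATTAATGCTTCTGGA
UGT1A3 (first-exon part at chr2:233729964-233729993): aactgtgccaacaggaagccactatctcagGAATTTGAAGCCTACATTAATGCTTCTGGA
UGT1A1 (first-exon part at chr2:233761122-233761151): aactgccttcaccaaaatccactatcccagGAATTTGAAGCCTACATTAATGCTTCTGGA
Of the 30 first-exon bases, UGT1A3 had 20 and UGT1A1 had 14 in common with UGT1A6. The authors counted a read for every gene whose extent it overlapped. The UGT1A6 row (chr2:233691607-233773300) therefore contains the UGT1A1 row (chr2:233760248-233773299), and any read in the shared exons counted for all 9 rows.

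Of the 8 rows, those of the UGT1A locus had the largest fold change with HGF in Detroit 562. The UGT1A1 row held 268, 239 and 118 CPM in the 3 Detroit 562 control libraries and 94.1, 98.2 and 34.9 CPM in the 3 HGF libraries, numbered 1 to 3 in each case. Every HGF library lay below every control library, and the libraries numbered 3 were the lowest of both groups. The UGT1A1 row was 2.75-fold lower with HGF, a log2 fold change of -1.46 ± 0.42 (SE, adjusted p = 0.0195, edgeR quasi-likelihood test, adjusted by Benjamini-Hochberg across the 15475 tested rows, as are the adjusted p-values below). A gene was called when its adjusted p was below 0.1 and its log2 fold change at least 0.4 in size. The UGT1A6 row, mostly the same reads, fell by 1.42 on the log2 scale (adjusted p = 0.0200).

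In FaDu the UGT1A1 row held 134, 106 and 53.6 CPM in control and 68.8, 77.9 and 28.1 CPM with HGF. The 2 groups overlapped because the third control library was lower than the first and the second HGF library, while each HGF library was below the control of its own number. The log2 fold change was -0.75 ± 0.42 (SE, adjusted p = 0.641) without the replicate number in the fit. With the number as a block it was -0.77 ± 0.091 (SE, adjusted p = 0.000136), and the row was called. The same numbers marked libraries that deviated together in all 3 lines, so both fits are given wherever they disagree.

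SCC-9 held little UGT1A RNA: 172, 223 and 236 counts of the UGT1A1 row in control, or 4.11, 5.30 and 6.01 CPM, and 94, 124 and 134 counts with HGF, or 2.25, 2.93 and 3.29 CPM. All HGF libraries were below all control libraries. The log2 fold change was -0.86 ± 0.52 (SE, adjusted p = 1) without the block and -0.87 ± 0.16 (SE, adjusted p = 0.00823) with it, and the row was called only with the block. Across the lines the UGT1A1 row was lower with HGF in 9 of 9 same-numbered pairs, as were UGT1A6, CYP1B1 and ARNT, while 8.42% of all tested genes were lower in all 9.

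**Figure D1:**
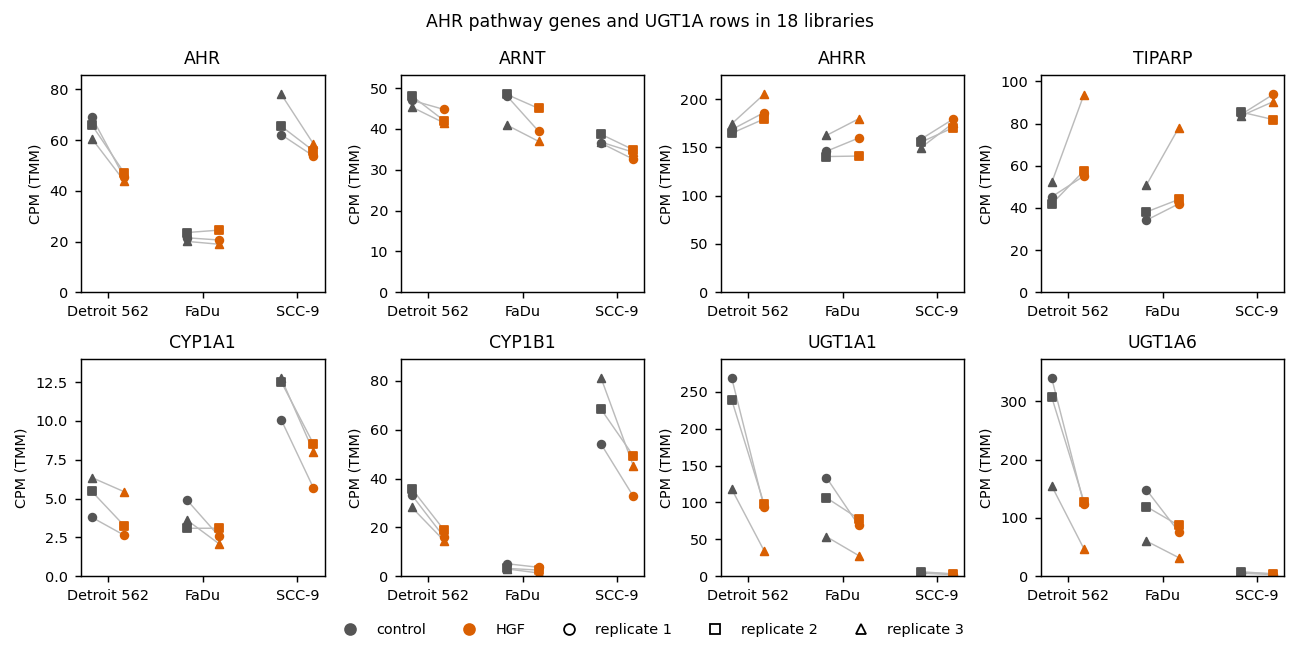
CPM (TMM-scaled) of the 8 rows in each of the 18 libraries. Grey points are control and orange points HGF, the marker gives the replicate number, and a line joins the 2 libraries of a number. The UGT1A rows fell along every line, from 118 to 268 CPM down to 34.9 to 98.2 CPM for UGT1A1 in Detroit 562, and are near the bottom of the axis in SCC-9.

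Because the 9 UGT1A rows are nested, subtracting each from the next wider one gave the reads that lie wholly before the next first exon, that is, the reads of 1 first exon and the intron after it. The innermost row, UGT1A1, could not be split between its own first exon and the shared exons. The segments of UGT1A8, UGT1A10, UGT1A9 and UGT1A7 together held 17 of 65466 locus reads over the 18 libraries (0.0260%), with at most 6 in any library. Those of UGT1A5, UGT1A4 and UGT1A3 held 815 reads (1.24%). The first exons of these variants resemble each other, and how reads that align to several places were treated is not given in the sources used here, so counts between those neighbours are uncertain.

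UGT1A6, which glucuronidates small planar phenols, was the upstream first exon with most reads in each line. Divided by the length of the first exon in kilobases, the reads of the UGT1A6 segment came to 9285 reads over the 6 Detroit 562 libraries, 2078 over the 6 FaDu libraries and 237 over the 6 SCC-9 libraries. Those of the UGT1A3 segment came to 439, 260 and 39.9. The share of the UGT1A6 segment in the locus reads was 21.3% ± 1.22 (SD, n = 3) in Detroit 562 control. It was 9.69% ± 0.688 in FaDu control and 16.8% ± 3.25 in SCC-9 control. The shares of FaDu did not overlap with those of the other lines, nor did those of Detroit 562 and SCC-9 (exact permutation test, two-sided p = 0.1 for each pair, the smallest that 3 against 3 libraries allow). The SCC-9 control shares rest on 28, 53 and 57 reads. The 95% counting intervals of SCC-9 controls 2 and 3 reached 23.5% and 23.8%, above the highest Detroit 562 control share of 22.5%. For both, the step from Detroit 562 lies within counting error. The interval of SCC-9 control 1 ran from 8.87% to 18.4%. It takes in the FaDu control shares of 8.89% to 10.1%, so for that library the step from FaDu does too.

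In the HGF libraries Detroit 562 had 22.6% ± 0.699 (SD, n = 3), FaDu 9.21% ± 0.671 and SCC-9 19.9% ± 4.32. Against control, the exact permutation test, which leaves out the replicate number, gave two-sided p = 0.3, 0.4 and 0.6. By number, the Detroit 562 share was higher with HGF in each pair (20.0% to 22.2%, 21.3% to 22.3% and 22.5% to 23.4%). The FaDu share was lower in each (8.89% to 8.64%, 10.12% to 9.04% and 10.04% to 9.95%). In SCC-9 it was higher in pairs 1 and 2 and lower in pair 3. These paired shifts in share were not tested. In Detroit 562 the segment of UGT1A6 fell by 1.33 on the log2 scale (SE 0.37, adjusted p = 0.0175) and the innermost segment fell by 1.46 (SE 0.42, adjusted p = 0.0194). The UGT1A3 segment fell by 0.88 (SE 0.31, adjusted p = 0.0483), a call that was lost without control 1, control 2, HGF 2 or HGF 3. All 3 segments with enough reads to be tested were thus called lower. In FaDu the UGT1A6 segment had a log2 fold change of -0.83 ± 0.40 (SE, adjusted p = 0.618, 0.000308 with the block), while that of the UGT1A3 segment was 0.05 ± 0.33 (SE, adjusted p = 0.978). The UGT1A3 share of FaDu locus reads was 0.798% to 0.969% in control and 1.30% to 2.03% with HGF. These did not overlap (exact permutation test, two-sided p = 0.1) and rest on 25 to 59 reads per library. In SCC-9 the UGT1A6 segment, with 22 to 57 reads per library, had -0.59 ± 0.60 (SE, adjusted p = 1) and was not called with the block either (adjusted p = 0.221).

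**Figure D2:**
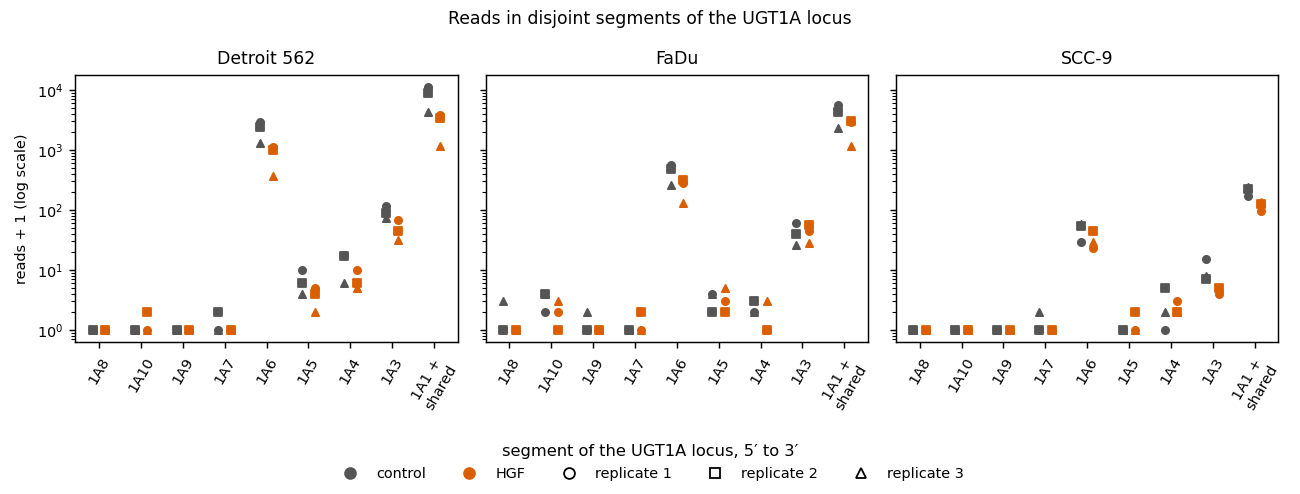
Reads plus 1 (log scale) in the 9 disjoint segments of the UGT1A locus, ordered 5′ to 3′, in each library of the 3 lines, where grey is control, orange HGF, and the marker is the replicate number. Reads stand in the UGT1A6 segment, with 9062 in all of Detroit 562, and in the innermost segment, which holds the UGT1A1 first exon and the shared exons, while the segments from UGT1A8 to UGT1A7 hold at most 6 reads together in any library.

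Of the CYP1 enzymes, which act upstream of glucuronidation, CYP1B1 was called lower in Detroit 562, and CYP1A1 in no line without the block. CYP1B1 had 33.2, 35.8 and 28.2 CPM in Detroit 562 control and 16.1, 18.9 and 14.6 CPM with HGF. The groups were well apart, and the row was 1.96-fold lower (log2 fold change -0.97 ± 0.24, SE, adjusted p = 0.00948). In SCC-9, where CYP1B1 was highest, it went from 54.0, 68.3 and 81.0 CPM to 32.7, 49.2 and 45.1 CPM. Again no HGF library reached the control range. The log2 fold change was -0.68 ± 0.23 (SE, adjusted p = 1), and it was called with the block (-0.68 ± 0.080, SE, adjusted p = 0.000634).

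In FaDu the CYP1B1 row was low, at 217, 129 and 129 control counts against 158, 100 and 55 in the HGF libraries. The groups overlapped, although each HGF library was below the control of its number. The log2 fold change was -0.60 ± 0.30 (SE, adjusted p = 0.623) and was called with the block (-0.62 ± 0.14, SE, adjusted p = 0.0112).

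CYP1A1, the usual reporter of an active receptor, was low in all 18 libraries, between 87 and 527 counts. In Detroit 562 it had 3.79, 5.46 and 6.35 CPM in control and 2.65, 3.26 and 5.45 CPM with HGF. The groups overlapped, since the third HGF library was above the first control library. The log2 fold change of -0.46 ± 0.26 (SE) did not pass (adjusted p = 0.209), but did with the block (-0.48 ± 0.15, SE, adjusted p = 0.0176) and without the third HGF library (-0.81, adjusted p = 0.0463).

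In SCC-9 CYP1A1 had 10.1, 12.5 and 12.7 CPM in control and 5.69, 8.53 and 8.03 CPM with HGF, with no overlap. The log2 fold change of -0.67 ± 0.25 (SE, adjusted p = 1) was called with the block only (-0.68 ± 0.12, SE, adjusted p = 0.00791). Its FaDu estimate was a log2 fold change of -0.58 ± 0.27 (SE, adjusted p = 0.612), with a call under the block (adjusted p = 0.0303), and the second pair of libraries was level at 3.09 CPM each. CYP1A1 was thus lower with HGF in 8 of 9 pairs. CYP1A2, the liver member of the family, had at most 9 counts in any library and was not tested.

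The row of the receptor itself was lower in Detroit 562. AHR (chr7:16916359-17346152) had 69.0, 66.0 and 60.6 CPM in control and 45.4, 47.2 and 43.9 CPM with HGF. The lowest control library was above the highest HGF library by more than either group's range, and AHR was 1.43-fold lower (log2 fold change -0.52 ± 0.097, SE, adjusted p = 0.00236). FaDu held 21.5, 23.5 and 20.1 CPM in control and 20.6, 24.5 and 18.9 CPM with HGF, which overlap throughout (log2 fold change -0.02 ± 0.10, SE, adjusted p = 0.963). SCC-9 went from 62.2, 65.5 and 78.1 CPM to 53.7, 55.8 and 58.5 CPM. Those groups did not overlap, but the log2 fold change of -0.29 ± 0.097 (SE, adjusted p = 0.964) stayed below the minimum size also with the block, where its adjusted p was 0.00791. A second row on the same strand, RP11-507K12.1, overlaps AHR and held 0.894 to 0.936 times its counts in every library, and its log2 fold change in Detroit 562 was -0.52 as well. A read in the overlap counted for both rows, and its gene of origin cannot be told from these counts.

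ARNT, the partner that AHR needs to bind DNA, was present at a similar level everywhere, from 32.6 to 48.5 CPM. Its log2 fold changes with HGF were -0.13 ± 0.078, -0.18 ± 0.078 and -0.14 ± 0.078 (SE) in Detroit 562, FaDu and SCC-9, with adjusted p of 0.231, 0.595 and 1, and it was called in no line with or without the block.

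TIPARP, an enzyme that adds ADP-ribose to AHR, had 45.3, 41.9 and 52.1 CPM in Detroit 562 control and 55.1, 57.6 and 93.8 CPM with HGF. Every HGF library was above every control library, with the third far above the others, and the row rose 1.48-fold (log2 fold change 0.57 ± 0.22, SE, adjusted p = 0.0695, 0.000285 with the block). The call rested on the third HGF library: without it the estimate was 0.28 (adjusted p = 0.383), and the call was also lost without control 1 or control 2. In FaDu TIPARP went from 34.2, 38.1 and 50.8 CPM to 41.9, 44.002 and 77.9 CPM, where the third library was again the highest of both groups (log2 fold change 0.41 ± 0.22, SE, adjusted p = 0.641, with the block 0.38, below the minimum size, adjusted p = 0.0171). The SCC-9 estimate was 0.07 ± 0.22 (SE, adjusted p = 1).

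AHRR, which competes with AHR for ARNT, cannot be read from its row. The row (chr5:304176-438291) overlaps PDCD6, a calcium-binding protein gene on the same strand, over chr5:304176-353856. That stretch holds 78.6% of the exon bases of PDCD6 and 5.39% of those of AHRR. The counts of the AHRR row were 0.896 to 0.977 times those of the PDCD6 row in every library. The log2 fold changes of the AHRR row, 0.17 ± 0.079, 0.10 ± 0.079 and 0.18 ± 0.079 (SE) in Detroit 562, FaDu and SCC-9, lay beside 0.18, 0.10 and 0.20 for PDCD6, and none was called.

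Counted over the 8 rows, 5 were called in Detroit 562 (4 lower, 1 higher), where 17.9% of all tested genes were called, 11.7% lower and 6.16% higher. By locus, with UGT1A counted once, that was 3 lower and 1 higher of 7. None of the 8 was called in FaDu, where 0.0258% of genes were (1247 at an unadjusted p below 0.05, 66 called by DESeq2), or in SCC-9, where 0% were (641 at an unadjusted p below 0.05, 19 called by DESeq2). The study's own DESeq2 run, at the same thresholds, called more genes than this in both FaDu and SCC-9. With the replicate block the counts of called rows rose to 6 (Detroit 562), 4 (FaDu) and 4 (SCC-9), where 21.5%, 5.6% and 1.97% of all genes were called. By locus the Detroit 562 count with the block was 4 lower and 1 higher of 7. The 4 rows in FaDu and in SCC-9 were CYP1A1, CYP1B1, UGT1A1 and UGT1A6, all lower, and 2 of them are the same locus. Of all genes, 3.6% were called lower in FaDu and 1.41% in SCC-9. Groups that did not overlap, with HGF below control, were seen for 5 rows in Detroit 562 (20.1% of all genes) and 6 in SCC-9 (9.12%). Both UGT1A rows are in each of those counts. With the UGT1A locus counted once, through its UGT1A6 row, the median log2 fold change of the 7 loci came to -0.46, -0.18 and -0.29 for Detroit 562, FaDu and SCC-9. Without the AHRR row, which follows PDCD6, the 6 others had -0.49, -0.38 and -0.48. The medians of all genes were -0.0056, -0.0039 and 0.0013.

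**Figure D3:**
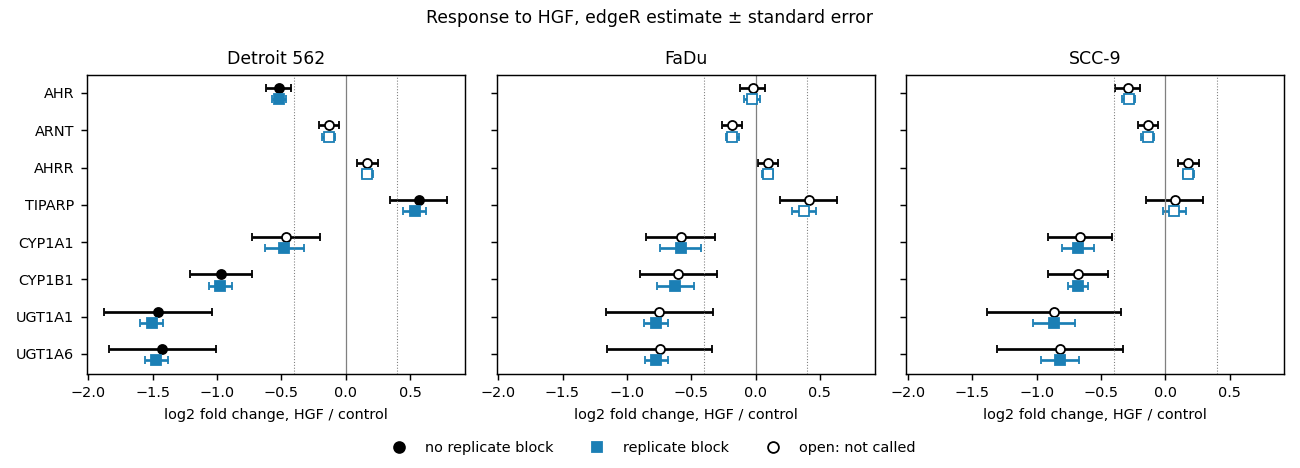
Log2 fold change with HGF (edgeR estimate, bars ± 1 SE) of the 8 rows in each line, without the replicate number in the fit (black circles) and with it as a block (blue squares), where filled symbols were called and dotted lines mark the minimum size of 0.4. The estimates hardly move between the fits while the bars shorten, as for UGT1A1 in FaDu from 0.42 to 0.091.

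Whether the lines responded differently was tested directly, and here an adjusted p below 0.1 was enough, with no minimum size. Without the block none of the 8 rows differed in response between Detroit 562 and FaDu, Detroit 562 and SCC-9 or FaDu and SCC-9, where 0.239%, 0.924% and 0% of all genes did. At an unadjusted p below 0.05 there were 1788, 2378 and 337 genes, and DESeq2 called 270, 649 and 5. With the block 3 rows differed between Detroit 562 and FaDu (AHR, UGT1A1 and UGT1A6) and 5 between Detroit 562 and SCC-9 (these and TIPARP and CYP1B1), beside 19.1% and 26.9% of all genes, and none between FaDu and SCC-9 (1.32%). The counts of 3 and 5 both include UGT1A1 and UGT1A6, which are the same locus. For the UGT1A1 row the response in Detroit 562 was lower than that in FaDu by -0.73 ± 0.13 (log2, SE, adjusted p = 0.00272) and lower than that in SCC-9 by -0.64 ± 0.19 (adjusted p = 0.0274). CYP1A1 did not differ in either fit: the response in Detroit 562 minus that in FaDu was 0.12 ± 0.38 (log2, SE, adjusted p = 0.932). These comparisons share libraries with those above.

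The untreated lines also differed in level. Between untreated Detroit 562 and FaDu 4 of the 8 rows were called (61% of all genes), between Detroit 562 and SCC-9 5 (65.4%) and between FaDu and SCC-9 6 (64.2%). Each count includes both UGT1A rows. AHR averaged 68.6 CPM ± 8.40 (SD, n = 3) in SCC-9, 65.2 ± 4.27 in Detroit 562 and 21.7 ± 1.74 in FaDu. SCC-9 and Detroit 562 did not differ beyond their spread (log2 difference, Detroit 562 minus SCC-9, -0.07 ± 0.097, SE, adjusted p = 0.505), and Detroit 562 was 3.01-fold above FaDu (adjusted p = 3.36e-10).

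CYP1B1 followed the same order at 67.8 CPM ± 13.5 in SCC-9, 32.4 ± 3.87 in Detroit 562 and 3.81 ± 1.17 in FaDu (SD, n = 3). Each step was called: SCC-9 was 2.09-fold above Detroit 562 (adjusted p = 0.000617) and Detroit 562 was 8.50-fold above FaDu (adjusted p = 2.1e-08). CYP1A1 and TIPARP were highest in SCC-9 too, at 11.8 CPM ± 1.48 and 84.5 CPM ± 0.902. For both, Detroit 562 and FaDu did not differ beyond their spread (adjusted p = 0.163 and 0.486). With the block the adjusted p was 0.0232 and 0.0670, at sizes below the minimum. CYP1A1 was called higher in Detroit 562 than in FaDu without Detroit 562 control 1 (0.60, adjusted p = 0.0605) or FaDu control 1 (0.63, adjusted p = 0.0646).

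The UGT1A locus had another order. The UGT1A1 row was highest in Detroit 562 at 208 CPM ± 79.6, followed by FaDu at 97.9 ± 40.7 and SCC-9 at 5.14 ± 0.960 (SD, n = 3). Detroit 562 was 40.5-fold above SCC-9 (adjusted p = 5.44e-08) and FaDu was 19.0-fold above SCC-9 (adjusted p = 6.02e-07). The 2.13-fold step between Detroit 562 and FaDu was called (adjusted p = 0.0267), but not without FaDu control 3 (adjusted p = 0.113) or Detroit 562 control 1 (adjusted p = 0.103). SCC-9, highest in CYP1A1, CYP1B1 and TIPARP, was thus lowest in UGT1A.

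The promoters of the members were searched for the core that AHR and ARNT bind. RefSeq promoters (GRCh38.p14, 250 bases before to 50 after a start) were found for 7 of the 8 members and not for CYP1B1. The core GCGTG on either strand was in 36.5% of all 35116 promoters, and the longer TNGCGTG, which contains it, in 5.51%. Where a member had several starts, each was searched. TNGCGTG occurred once at an upstream start of UGT1A6 and once at a start of AHRR. CYP1A1 and AHR had GCGTG once, and the other start of AHRR and the first start of TIPARP each had it at 2 places. ARNT, UGT1A1, the later starts of TIPARP and the second start of UGT1A6 had neither. That second UGT1A6 window (chr2:233692640-233692939) is the one at the first exon described above, which begins at chr2:233692890. The windows of the upstream UGT1A6 start and of CYP1A1 are printed, as enzymes of the pathway with a match, with GCGTG in capitals.
UGT1A6 (chr2:233691452-233691751, plus strand): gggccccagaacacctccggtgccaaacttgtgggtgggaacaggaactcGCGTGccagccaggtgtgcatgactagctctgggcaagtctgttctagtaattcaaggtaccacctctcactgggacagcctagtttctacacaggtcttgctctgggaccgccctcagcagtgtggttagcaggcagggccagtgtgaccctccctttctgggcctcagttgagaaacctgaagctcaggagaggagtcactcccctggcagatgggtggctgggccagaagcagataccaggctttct
CYP1A1 (chr15:74725479-74725778, minus strand): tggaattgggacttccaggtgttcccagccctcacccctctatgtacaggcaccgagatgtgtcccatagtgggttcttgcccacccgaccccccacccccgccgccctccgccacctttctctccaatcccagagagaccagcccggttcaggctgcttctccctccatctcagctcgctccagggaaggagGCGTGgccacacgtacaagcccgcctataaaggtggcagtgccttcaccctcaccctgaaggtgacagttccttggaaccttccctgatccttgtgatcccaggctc
A match of letters is a description of the window, and longer distances were not searched.

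Genes of the pathway were also grouped in lists by function, some of which include members. In Detroit 562, 6 of 11 tested AHR target enzymes and transporters were lower and 1 higher, where 11.7% and 6.16% of all genes were. As UGT1A1 and UGT1A6 are both in the list, this is 5 lower of 10 loci, with a median log2 fold change of -0.64 against -0.0056 for all genes. CYP1B1 and both UGT1A rows are among the lower genes, and CYP1A1 was in the list too. The count and the median are therefore not separate from the member results above. Of the genes beyond the 8 rows, ALDH3A1, an aldehyde dehydrogenase, had a log2 fold change of -1.27 ± 0.65 (SE, adjusted p = 0.160) and was called with the block (-1.43, adjusted p = 1.84e-06). NFE2L2, a regulator of antioxidant genes, fell by 0.47 (adjusted p = 0.000653). The other called genes of the list are named after their values were seen: CYP2S1 fell by 0.81 (adjusted p = 0.0163), SERPINB2 fell by 0.94 (adjusted p = 0.0454), and ABCG2, an efflux pump, was the 1 that rose (0.60, adjusted p = 0.0222). SERPINB2 lost its call without control 1, control 2, HGF 1 or HGF 2.

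The kynurenine route makes AHR ligands from tryptophan, and 4 of its 8 tested genes were lower in Detroit 562, none higher (median log2 fold change -0.47), against 11.7% of all genes called lower. Amounts of ligand were not measured, so these counts give no direction for the supply of ligand. IDO1, which opens the route, was low at 0.674 CPM ± 0.326 (SD, n = 3) in control and 0.137 ± 0.113 with HGF, with a log2 fold change of -2.28 ± 0.54 (SE, adjusted p = 0.00708). KMO fell by 1.58 (adjusted p = 0.00620) and KYNU by 0.57 (adjusted p = 0.00119), and these 3 were called whichever Detroit 562 library was left out. HAAO fell by 0.74 (adjusted p = 0.0862) and lost its call without control 1, control 2, HGF 1 or HGF 3. IDO1 was called with the block in FaDu (-3.39, adjusted p = 0.0315) from at most 9 counts per library, and in SCC-9 (-1.09, adjusted p = 0.00337), where it was highest at 3.91 CPM ± 0.905 in control.

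Among regulators of UGT1A transcription, 4 of 6 tested were lower in Detroit 562 and none higher (11.7% of all genes were lower), and AHR and NFE2L2 among them are counted above. The 4 were AHR, RXRA (-0.59, adjusted p = 0.0115), a partner of nuclear receptors, NFE2L2, and PPARA (-0.49, adjusted p = 0.0422), a receptor for fatty acids. PPARA lost its call without control 1, control 2, HGF 1 or HGF 3. Of the genes that supply UDP-glucuronate or move its products, 2 of 9 were lower, beside the same 11.7%. UGDH, which makes the sugar donor, went from 148 CPM ± 39.1 to 87.8 ± 22.8 (SD, n = 3, log2 fold change -0.75, adjusted p = 0.0285) and the pump ABCC1 had -0.44 (adjusted p = 0.0141). UGDH lost its call without control 1, control 2 or HGF 3, and ABCC1 without control 1 or HGF 3. ABCC3 was called with the block only (-0.50, adjusted p = 0.00267), and ABCC4 in FaDu with the block only (0.41, adjusted p = 0.000873).

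The remaining lists moved little. None of 4 AHR chaperones was called in any line in either fit. Of 6 tested bHLH-PAS relatives, SIM2 rose (0.81, adjusted p = 0.0837) and EPAS1, also known as HIF-2α, fell (-0.50, adjusted p = 0.0810) in Detroit 562. Of all genes, 6.16% were called higher and 11.7% lower there. SIM2 was low, at 0.431 CPM ± 0.0707 (SD, n = 3) in control and 0.751 ± 0.293 with HGF. SIM2 and EPAS1 were each called in 2 of 6 fits with 1 library left out. Both lost the call without control 1, control 2 or HGF 3, SIM2 also without HGF 1 and EPAS1 also without HGF 2. EPAS1 was called in FaDu with the block (-0.49, adjusted p = 0.000602). Only 2 of 13 other UDP-glycosyltransferases had enough reads to be tested, and neither was called. In a list of 5 genes for P450 electron supply and heme turnover, none of the electron donors was called. HMOX1, a heme oxygenase, was called with the block only, in Detroit 562 (-0.52, adjusted p = 0.0518) and FaDu (-0.97, adjusted p = 0.00146). Without the block no gene of these lists was called in FaDu or SCC-9. The target genes called lower with the block were, in FaDu, the 4 rows given above and ALDH3A1 (-0.71, adjusted p = 0.00443), and in SCC-9 those 4 rows alone, where 3.6% and 1.41% of all genes were called lower.

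**Figure D4:**
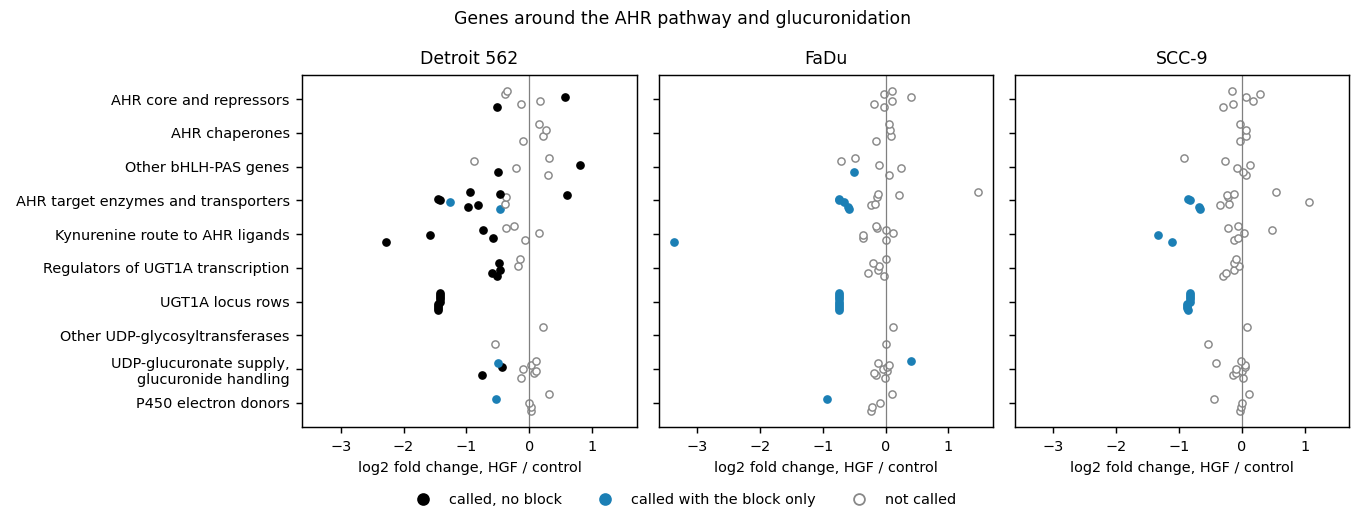
Log2 fold change with HGF for the tested genes of each list in the 3 lines, where black points were called without the replicate block, blue points with the block only, and open points in neither fit. In Detroit 562 the targets, the kynurenine route and the UGT1A regulators lie mostly left of 0, with medians of -0.81 (both UGT1A rows counted), -0.47 and -0.48.

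The genes most like each row over the 18 libraries are a description, because libraries of 1 line share its overall level and the coefficients largely follow it. By Pearson's r of log2 CPM, UGT1A1 was most like FGFR3 (0.994), LGR6 (0.988) and ALG1L (0.988). AHR was most like GSN (0.988), XXbac-BPG116M5.17 (0.988) and CFB (0.987), and CYP1B1 like S100A9 (0.986), SH3BP5L (0.982) and CFB (0.982). For TIPARP these were PSD3 (0.966), NDEL1 (0.958) and TMCC3 (0.948), and for CYP1A1 RAB3IP (0.932), HACL1 (0.909) and CEP162 (0.907). For ARNT they were CADM4 (0.950), CACFD1 (0.936) and CCDC115 (0.935), and for the AHRR row CDC25A (0.938), FASTKD1 (0.924) and NOL9 (0.909).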

How the data were processed

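Total RNA from 18 cultures was made into stranded poly(A) libraries. Per the submitters' processing notes, the authors demultiplexed with bcl2fastq 2.20.0.422, trimmed with cutadapt 1.16, aligned with STAR 2.5.2b to GRCh38.p12 and counted with bedtools. The deposited values are raw counts per gene, not normalized. A read counted for every gene extent it overlapped on its strand. All sample columns were used.

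The counts were fitted over all 18 libraries with 6 group means in edgeR 4.0.16 (R 4.3.3), with TMM scaling and filterByExpr, after tests on simulated data, and p-values were adjusted over 15475 genes. DESeq2 1.42.0, other scalings, no filter, fits of 1 line and each library left out were alternatives. The study states that experiments were repeated, but whether replicates are separate cultures of 1 passage is not given, so p-values measure the spread between these samples. Same-numbered libraries deviated together in every line: their correlations were 0.161 to 0.454 in Detroit 562, 0.376 to 0.563 in FaDu and 0.203 to 0.332 in SCC-9, so the number was also fitted as a block within each line. Segments are differences of successive nested UGT1A rows. Named genes were the 8 members, up to 4 per list with the largest change in Detroit 562 among genes called in any line, the 3 most alike per member, and markers. Members and lists were chosen with earlier results of these data known. Counting intervals and limits cover counting error only.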

Additional observations from a re-analysis of the deposited data

Results flagged for a closer look

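The difference between cell lines in their response to HGF was tested directly, and it passed for the following rows only once the replicate number entered the model (edgeR, adjusted p below 0.1). Without it none passed. The response of AHR in Detroit 562 was lower than in FaDu (-0.49 on the log2 scale, adjusted p = 0.00179) and than in SCC-9 (-0.23, adjusted p = 0.0431). TIPARP rose more in Detroit 562 than in SCC-9 (0.47, adjusted p = 0.0210), and CYP1B1 fell more (-0.29, adjusted p = 0.0978). The UGT1A1 row fell more in Detroit 562 than in FaDu (-0.73, adjusted p = 0.00272) and than in SCC-9 (-0.64, adjusted p = 0.0274), as did the UGT1A6 row (-0.70, adjusted p = 0.00302, and -0.65, adjusted p = 0.0171), which holds mostly the same reads. With the block, 19.1% of all tested genes differed in response between Detroit 562 and FaDu and 26.9% between Detroit 562 and SCC-9.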

How the results depend on the processing

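Under the replicate block the count of called rows was 4 in FaDu and 4 in SCC-9, and the count with a different response was 3 for Detroit 562 against FaDu and 5 for Detroit 562 against SCC-9. Both rows of the UGT1A locus are in each of these counts. CYP1A1 in Detroit 562 was also gained, and the block changed no other call of the 8 rows. DESeq2, with or without a fold change prior, gave 1 row with a different response between Detroit 562 and FaDu (AHR). ARNT, near 0 in both, changed sign for the response in Detroit 562 minus SCC-9 with DESeq2's size factors in edgeR (-0.00186), upper-quartile factors (-0.00401) and DESeq2 with (-0.000500) or without the prior (-0.000486), and for untreated Detroit 562 minus FaDu with upper-quartile factors (-0.00473). Among all 8 rows and settings other than leaving out a library, 495 values kept direction and call, 19 gained a call and 5 changed sign; with 1 library left out, these were 667, 4 and 44, and 5 lost a call. The cause was not tested.

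With 1 library left out, the count of called rows was 4 to 5 in Detroit 562 and 3 to 5 between untreated Detroit 562 and FaDu, and 0 to 1 rows differed in response between Detroit 562 and FaDu (AHR, without Detroit 562 control 3); 2 to 4 UGT1A segments were called in Detroit 562. Signs changed within these ranges of the log2 value. AHR ranged from -0.13 to 0.0673 in FaDu and from -0.13 to 0.0336 in untreated Detroit 562 minus SCC-9, and ARNT from -0.0458 to 0.0697 in untreated Detroit 562 minus FaDu. For the response in Detroit 562 minus FaDu the ranges were ARNT -0.0165 to 0.14, AHRR -0.0120 to 0.15, TIPARP -0.13 to 0.50, CYP1A1 -0.23 to 0.33 and CYP1B1 -0.68 to 0.0195. For Detroit 562 minus SCC-9 they were ARNT -0.0274 to 0.0334, AHRR -0.0674 to 0.0299 and CYP1A1 -0.15 to 0.41. For FaDu minus SCC-9 they were ARNT -0.13 to 0.0288, AHRR -0.16 to 0.00204, CYP1A1 -0.0644 to 0.29, CYP1B1 -0.31 to 0.39, UGT1A1 -0.18 to 0.46 and UGT1A6 -0.22 to 0.41.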
